A study of Mus musculus with 6 samples.

Results

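Hepatokines are proteins that the liver secretes into the blood and that act on other organs. Transcripts of 9 genes for such proteins, *Fgf21*, *Gdf15*, *Inhbc*, *Inhbe*, *Inhba*, *Fetub*, *Ahsg*, *Lect2* and *Il34*, are described here, out of 57180 genes in a table from RNA-seq of primary mouse hepatocytes. The genes were chosen by name with their measured differences between the groups already known, so those differences are given as a description and no test of them is offered. The cells came from male mice of 2 genotypes (C57BL/6 background, aged 8 to 10 weeks as the study states for its mice in general), and RNA was taken after 24 h in 0.1 mM palmitic acid, a saturated fatty acid used to load hepatocytes with lipid. LOXP mice, the controls, carry the floxed STING gene. STINGLKO mice carry the floxed gene together with Albumin-Cre, a transgene that drives the Cre recombinase from the albumin promoter and thus in hepatocytes. Each group had 3 libraries (LOXP1 to LOXP3, and KO1 to KO3 for STINGLKO), and nothing states whether the libraries of a group came from separate mice, so their spread may be technical in part. Every library was treated with palmitic acid, so the response to the fatty acid itself cannot be read from these data.

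The 9 genes fall into several families of secreted signals. FGF21 is a hormone of fasting and cellular stress that needs the co-receptor beta-Klotho, GDF15 is a stress cytokine that curbs appetite through GFRAL in the hindbrain, and the activin beta subunits form dimers of the TGF-beta family. Fetuin-A and fetuin-B are abundant plasma proteins of the cystatin superfamily, LECT2 is a chemotactic plasma protein made mainly by hepatocytes, and IL-34 is a ligand of the macrophage receptor CSF1R. STING, the protein whose gene was targeted, is the adaptor that passes on the detection of cytosolic DNA by cGAS.

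Counted reads ran from 14726983 to 18536985 per library, and mitochondrial genes took from 3.86% to 4.65% of them. *Sting1* itself had 19, 16 and 23 counts in LOXP1, LOXP2 and LOXP3 and 24, 23 and 15 in KO1, KO2 and KO3, a log2 fold change of -0.08 (SE 0.298). The counts thus show no lower *Sting1* level at this depth. Which exons were deleted is not stated, and the genotype of each library rests on its label. The study also measured the *sting* mRNA by RT-PCR, which is not analysed here. The hepatocyte markers, led by *Alb* (mean FPKM 7670 in LOXP) and *Apoa1* (1135), were abundant in every library, with a summed level from 10075 to 10468 FPKM in LOXP and from 8708 to 8869 in STINGLKO. FPKM is the read count divided by the gene's length and by the library's counted reads. Of the 9 hepatocyte markers, 7 had a lower level in STINGLKO at an adjusted p under 0.05, as did 11.6% of the 14151 genes tested. Among the 7 was *Alb*, which had a log2 fold change of -0.27 (adjusted p = 0.00319). The change was uneven over the list. *Cps1* was at -1.24 and *Hnf4a* at -0.59, while *Apoa1* and *Apob*, which were not called, were at -0.09 and -0.14 (adjusted p = 0.232 and 0.537). In bulk RNA, fewer cells of a type and less RNA per cell cannot be told apart.

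In STINGLKO, 6 of the 9 hepatokine transcripts stood lower than in LOXP with an adjusted p under 0.05, and 11.6% of the 14151 genes tested did so. The 6 were *Fgf21*, *Ahsg*, *Inhbc*, *Il34*, *Inhba* and *Fetub*, in order of their fold change. Of these, *Fgf21*, *Ahsg*, *Inhbc* and *Il34* also met the study's 3 criteria together (fold change beyond 1 on the log2 scale, adjusted p under 0.05, and an FPKM averaging over 1 in either group), which 1.49% of the genes tested met in this direction. No member was higher at the adjusted threshold in edgeR's quasi-likelihood test (11.5% of the genes tested were, and 0.558% were by the 3 criteria). In the higher direction 1 member, *Lect2*, had an unadjusted p under 0.05 in that test. By adjusted p, DESeq2 gave 0 higher members. Since these differences were known when the genes were picked, nothing is read from those counts against the shares. The groups did not overlap for 7 of the 9: the same 6 lower genes, against 20.3% of the genes tested, and *Lect2*, which was higher, against 20.4%. *Gdf15* and *Inhbe* overlapped. The median log2 fold change of the 9 was -0.94, and that of all genes tested was -0.0021.

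**Figure D1:**
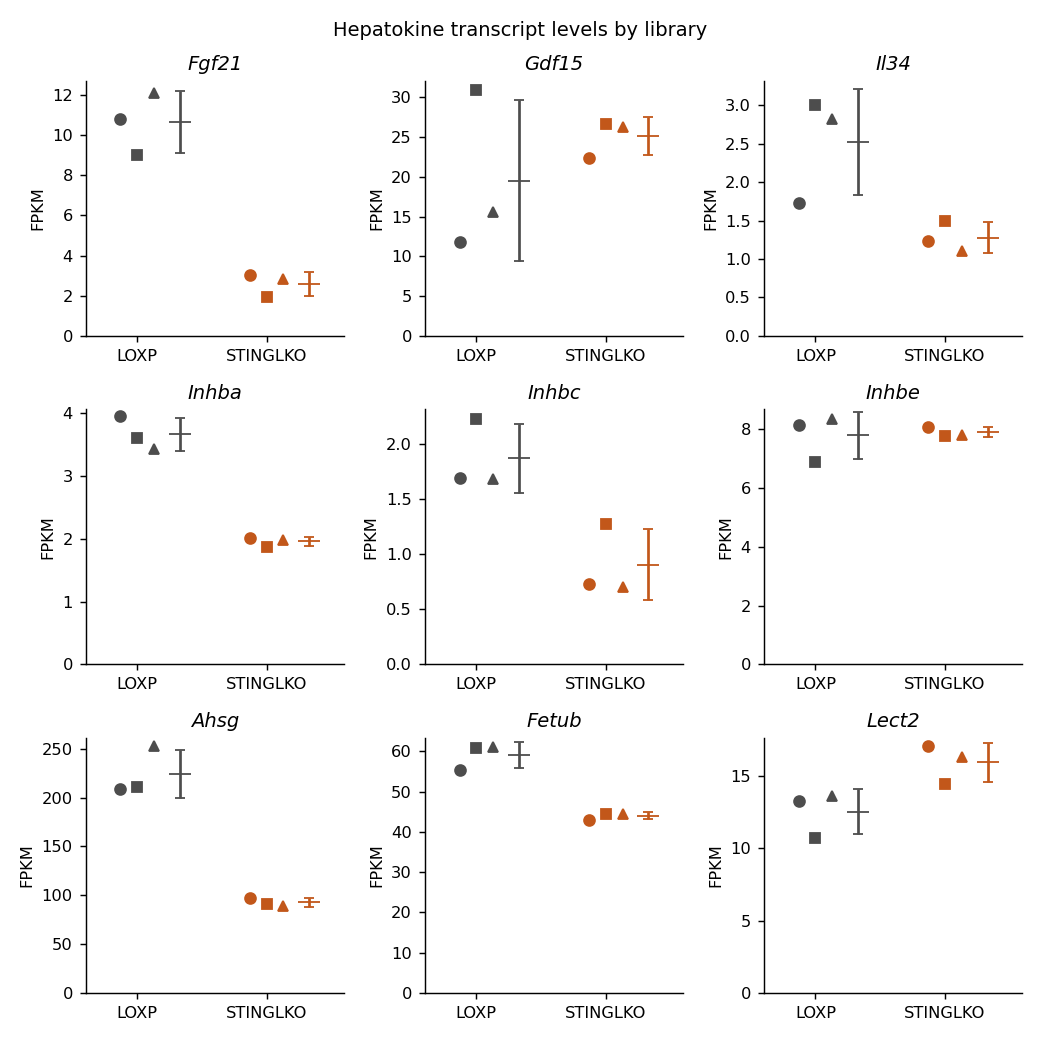
FPKM of each hepatokine gene in the 3 LOXP libraries (grey) and the 3 STINGLKO libraries (orange), with circles for library 1, squares for library 2 and triangles for library 3, and with the group mean ± SD beside them. All genes but *Gdf15* and *Inhbe* fall into separate ranges by group. *Gdf15* is spread from 11.9 to 30.9 within LOXP, and *Inhbe* lies between 6.89 and 8.36 in every library.

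*Fgf21* (ENSMUSG00000030827; GRCm39 chromosome 7, 45263310 to 45264914) had the largest difference of the 9 genes. Its level in CPM, the count scaled to the normalised size of the library, was 10.3, 8.81 and 11.6 in LOXP1, LOXP2 and LOXP3. In KO1, KO2 and KO3 it was 2.87, 1.83 and 2.62. Every STINGLKO library therefore stood below every LOXP library, and the group means of 10.2 ± 1.39 and 2.44 ± 0.540 CPM (SD, n = 3 per group) were 4.19-fold apart. The log2 fold change was -2.07 (SE 0.199), and it stayed between -2.20 and -1.90 with any 1 library left out. Counts behind these values ran from 126 to 176 in LOXP and from 34 to 45 in STINGLKO, and counting error alone would give a coefficient of variation of 15.6% in STINGLKO, where 22.1% was seen.

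*Inhbe* (ENSMUSG00000047492; chromosome 10, 127184726 to 127190280), which encodes the activin beta E subunit made by the liver, had almost the same level in the 2 groups. It stood at 43.4, 37.8 and 44.9 CPM in LOXP1, LOXP2 and LOXP3 and at 42.6, 41.4 and 40.7 in KO1, KO2 and KO3. The 3 STINGLKO values lay inside the range of the LOXP values, with means of 42.0 ± 3.77 and 41.6 ± 0.947 CPM (SD, n = 3 per group) and a log2 fold change of -0.02 (SE 0.0811). Relative to *Fgf21*, the FPKM of *Inhbe* was 0.738 ± 0.0395 in LOXP and 3.15 ± 0.764 in STINGLKO.

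The promoters of *Fgf21* and *Inhbe* are shown because they hold the same 8 letters while the transcripts differed in their change. The 250 bases before the start of each gene are taken from RefSeq on GRCm38.p6, an earlier build than that of the table, at chr7:45615491-45615740 and chr10:127351849-127352098, both on the minus strand. They are written 5′ to 3′ along the gene, with motif matches in capitals.
Fgf21: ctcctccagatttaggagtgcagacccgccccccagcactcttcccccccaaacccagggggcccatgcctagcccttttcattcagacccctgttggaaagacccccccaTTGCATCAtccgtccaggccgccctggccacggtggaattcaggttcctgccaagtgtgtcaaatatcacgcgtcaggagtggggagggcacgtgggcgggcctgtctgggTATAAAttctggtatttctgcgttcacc
Inhbe: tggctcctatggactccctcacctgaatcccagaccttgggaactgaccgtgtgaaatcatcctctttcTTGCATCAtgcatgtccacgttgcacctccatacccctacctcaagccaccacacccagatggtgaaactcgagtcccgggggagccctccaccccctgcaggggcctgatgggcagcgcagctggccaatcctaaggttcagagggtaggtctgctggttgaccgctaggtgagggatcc
The run TTGCATCA begins at position -139 in *Fgf21* and at -181 in *Inhbe*, counted back from the start, and is a match on the opposite strand to TGATGNAA, the core of the composite element of ATF4 and C/EBP. ATF4 is the transcription factor of the integrated stress response, and *Fgf21* is a known target of it. These letters are held on either strand by 3.97% of 32851 mouse promoters of 300 bases (250 before and 50 after the start). The second run in *Fgf21*, TATAAA at position -28, is the core of a TATA box, held by 13.6% of promoters. A match describes the letters only.

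*Inhbc* (ENSMUSG00000025405; chromosome 10, 127192191 to 127206300) encodes the activin beta C subunit, also made mainly by the liver, and lies 1.911 kb from *Inhbe*. It had 50, 61 and 48 counts in LOXP1, LOXP2 and LOXP3 and 21, 44 and 22 in KO1, KO2 and KO3, or 3.16, 4.27 and 3.16 against 1.34, 2.37 and 1.28 CPM. KO2 was the highest of the STINGLKO libraries and still below each LOXP library. The means were 3.53 ± 0.640 and 1.67 ± 0.615 CPM (SD, n = 3 per group), and the log2 fold change was -1.07 (SE 0.285). It was -1.42 without KO2 and -0.90 without KO3, and *Inhbc* no longer met the 3 criteria without LOXP2, LOXP3, KO1 or KO3. The ratio of *Inhbe* to *Inhbc* in FPKM was 4.29 ± 1.04 in LOXP and 9.43 ± 2.89 in STINGLKO, and it was higher in every STINGLKO library than in every LOXP library. The long noncoding RNA *Gm47200*, which overlaps both genes, had at most 4 counts in a library.

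*Inhba* (ENSMUSG00000041324; chromosome 13, 16186436 to 16206206) encodes the beta A subunit of activin A, the classical ligand of this family. It stood at 29.4, 27.5 and 25.7 CPM in LOXP1, LOXP2 and LOXP3. In KO1, KO2 and KO3 it stood at 14.8, 13.9 and 14.4. The groups were far apart compared with their spread, with means of 27.5 ± 1.87 and 14.4 ± 0.434 CPM (SD, n = 3 per group). This is a log2 fold change of -0.94 (SE 0.0883), which lay between -0.99 and -0.89 with any 1 library left out, short of the study's fold change criterion.

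*Ahsg* (ENSMUSG00000022868; chromosome 16, 22710027 to 22718199), which encodes fetuin-A, a plasma carrier of calcium phosphate, was the most abundant of the 9 transcripts. It had 966, 1004 and 1178 CPM in LOXP1, LOXP2 and LOXP3 and 446, 421 and 403 in KO1, KO2 and KO3. The lowest LOXP library was thus well above the highest STINGLKO library. The means of 1049 ± 113 and 423 ± 21.3 CPM (SD, n = 3 per group) were 2.48-fold apart, a log2 fold change of -1.31 (SE 0.0802) that lay between -1.37 and -1.22 with any 1 library left out. The long noncoding RNA *Gm30505* overlaps *Ahsg* by 3110 bp and had 27, 19 and 23 counts in LOXP and 7, 13 and 7 in STINGLKO. The strand setting of the counting is not given in the sources used here, so reads of the overlapping genes cannot be told apart.

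*Fetub* (ENSMUSG00000022871; chromosome 16, 22737084 to 22758528) encodes fetuin-B, an inhibitor of the protease ovastacin, and lies 18.885 kb from *Ahsg*. It had 206, 233 and 228 CPM in LOXP1, LOXP2 and LOXP3 and 158, 165 and 161 in KO1, KO2 and KO3. Again no library of one group reached the other. The means were 222 ± 14.4 and 161 ± 3.76 CPM (SD, n = 3 per group), a 1.38-fold difference, and the log2 fold change was -0.46 (SE 0.0619). The FPKM of *Ahsg* was 3.77, 3.46 and 4.14 times that of *Fetub* in LOXP1, LOXP2 and LOXP3 and 2.27, 2.05 and 2.01 times in KO1, KO2 and KO3. The ratio of the fetuin transcripts therefore also separated the groups.

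The fetuin promoters are shown because these neighbours were both lower. They are the 250 bases before the start at chr16:22891765-22892014 and chr16:22918132-22918381 (the first of the *Fetub* promoters listed) on the plus strand of GRCm38.p6, from RefSeq.
Ahsg: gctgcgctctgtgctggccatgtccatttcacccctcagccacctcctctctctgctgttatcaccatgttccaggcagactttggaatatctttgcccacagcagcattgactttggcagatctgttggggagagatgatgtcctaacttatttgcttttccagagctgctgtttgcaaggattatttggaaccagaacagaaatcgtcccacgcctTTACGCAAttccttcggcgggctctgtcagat
Fetub: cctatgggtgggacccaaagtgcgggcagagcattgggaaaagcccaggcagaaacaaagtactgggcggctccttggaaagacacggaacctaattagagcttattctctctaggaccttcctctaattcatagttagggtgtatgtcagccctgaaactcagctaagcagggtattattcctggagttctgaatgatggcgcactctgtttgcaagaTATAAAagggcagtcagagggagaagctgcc
In *Ahsg* the run TTACGCAA at position -32 matches the C/EBP core TTGCNNAA on the opposite strand, held by 10.8% of promoters, and in *Fetub* the run TATAAA at -31 matches the TATA box core. The printed stretches share no motif among those searched. In all, 8 of the 9 genes matched an entry, with 10 promoters between them, and *Il34* did not. *Inhba* held both the C/EBP core, as TTTTGCAA at -67, and TATAAA at -91. The other promoters, those of *Gdf15*, *Inhbc* and *Lect2* and the second of *Fetub*, held none of the motifs searched on either strand. The other motifs searched had no match in any of the member promoters: GGGNNTTCC of NF-kB (held by 5.82% of all promoters), GAAANNGAA of IRF factors (8.56%), TGANTCA of AP-1 (7.81%) and GTTAATNAT of HNF1 (0.801%). Absence says only that these letters are not in the window.

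Genes beside the members were read for their values as well, by a choice made after the data had been seen. On chromosome 16, *Hrg*, which encodes a histidine-rich plasma glycoprotein made by hepatocytes and lies beyond *Fetub*, fell by 0.48 in log2 (adjusted p = 7.78e-04 in edgeR's quasi-likelihood test), and *Kng2*, a kininogen gene, fell by 0.37 (adjusted p = 0.0147). On the other side of *Ahsg*, *Dnajb11*, a chaperone gene of the endoplasmic reticulum, had a log2 fold change of 0.15 (adjusted p = 0.308). Beside *Fgf21*, the fucosyltransferase gene *Fut1*, with a mean FPKM of 0.528 in LOXP and 0.174 in STINGLKO, fell by 1.59 (adjusted p = 0.0286), and *Rasip1*, a gene of endothelial junctions, fell by 0.84 (adjusted p = 0.0312). *Bcat2* on the far side had a log2 fold change of -0.31 (adjusted p = 0.294). Next to *Gdf15*, the low-level *Lrrc25* fell by 2.18 (adjusted p = 0.0108), and *Pgpep1* was at -0.03 (adjusted p = 0.755). Next to *Il34*, *Sf3b3*, a splicing factor gene, rose by 0.65 (adjusted p = 9.23e-05). On the other side of *Il34*, the low-level *Mtss2* was at 0.80 (adjusted p = 0.288) and *Vac14* at 0.18 (adjusted p = 0.0856). On chromosome 10, *Mars1* beyond *Inhbe* fell by 0.30 (adjusted p = 0.00793), while *R3hdm2* beyond *Inhbc* was at -0.09 (adjusted p = 0.584). On chromosome 13, *Psma2*, 1337.62 kb before *Inhba*, rose by 0.23 (adjusted p = 0.0175), while *Sugct*, 825.851 kb after *Inhba*, was at -0.07 (adjusted p = 0.804). Of the tested genes nearest to *Lect2*, *Fbxl21* was at -0.63 (adjusted p = 0.228) and *Tgfbi* at -1.02 (adjusted p = 0.156). *Fut1* missed the threshold without LOXP2, LOXP3, KO1 or KO3, *Rasip1* without any one of the STINGLKO libraries (and was at -0.51 without LOXP2), *Kng2* without KO1, and *Psma2* without KO1 or KO2.

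**Figure D2:**
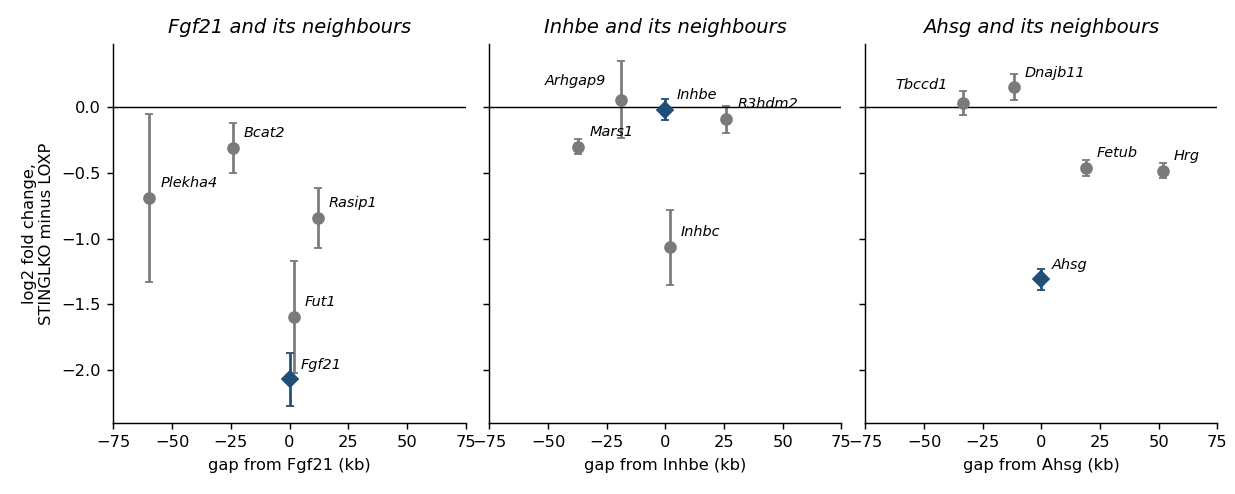
Log2 fold change (STINGLKO minus LOXP, ± SE) of *Fgf21*, *Inhbe* and *Ahsg* (blue diamonds, at 0 kb) and of the nearest tested genes on each side (grey), against the gap in kb between the genes, negative towards lower coordinates. *Ahsg*, *Fetub* and *Hrg* lie at -1.31, -0.46 and -0.48, with *Dnajb11* at 0.15 on the other side, and *Inhbc* at -1.07 stands beside *Inhbe* at -0.02.

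*Gdf15* (ENSMUSG00000038508; chromosome 8, 71082043 to 71085106) was the most variable of the 9 within LOXP. It had 34.8, 93.2 and 46.1 CPM in LOXP1, LOXP2 and LOXP3 and 64.6, 77.9 and 75.2 in KO1, KO2 and KO3. LOXP2 was above and the other LOXP libraries below all STINGLKO libraries. The coefficient of variation was 53.4% in LOXP and 9.67% in STINGLKO, against 3.41% and 2.83% from counting alone. The means were 58.0 ± 31.0 and 72.6 ± 7.01 CPM (SD, n = 3 per group), and the log2 fold change of 0.33 (SE 0.306) was no larger than the spread between libraries. It was 0.06 without LOXP1 and 0.85 without LOXP2, and only without LOXP2, among the 6 leave-outs, did *Gdf15* pass the adjusted threshold. LOXP2 also held the highest CPM of *Inhbc*, *Fetub* and *Il34*. The neutrophil markers, with 47 counts over all libraries and *Ly6g* and *Mpo* at 0, were highest in LOXP2 too (summed level from 0.0355 to 0.721 FPKM in LOXP and from 0.0108 to 0.0701 in STINGLKO). Some other markers of macrophages and endothelium, named after their values were seen, were low in LOXP2 against LOXP1 and LOXP3. *Clec4f* had 30 counts against 88 and 87, *Cd5l* 33 against 98 and 121, *Vsig4* 5 against 31 and 25, and *Kdr* 90 against 267 and 263. Other markers of the same lists were not low there. Of the macrophage list these were *Adgre1* (45 against 41 and 43), *Csf1r* (76 against 69 and 71), *Cd68* (1147 against 1146 and 1270) and *Marco* (114 against 125 and 131). Of the endothelial list, to which *Kdr* belongs, *Cdh5* (555 against 578 and 539) and *Lyve1* (376 against 371 and 274) were not low either. The part of these markers in the values of LOXP2 was not tested.

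*Lect2* (ENSMUSG00000021539; chromosome 13, 56690277 to 56696315) went the other way from most members. It had 18.9, 15.7 and 19.4 CPM in LOXP1, LOXP2 and LOXP3 and 23.9, 20.5 and 22.6 in KO1, KO2 and KO3. The lowest STINGLKO library stood just above the highest LOXP library. The means were 18.0 ± 2.03 and 22.3 ± 1.74 CPM (SD, n = 3 per group), and the log2 fold change was 0.31 (SE 0.111), between 0.22 and 0.37 with any 1 library left out.

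*Il34* (ENSMUSG00000031750; chromosome 8, 111468461 to 111532556) had 95, 153 and 150 counts in LOXP1, LOXP2 and LOXP3 and 66, 96 and 64 in KO1, KO2 and KO3. These are 5.995, 10.7 and 9.88 CPM against 4.21, 5.18 and 3.73. LOXP1 lay closer to the STINGLKO libraries than to the other LOXP libraries, without overlapping them. The means were 8.86 ± 2.51 and 4.37 ± 0.738 CPM (SD, n = 3 per group), and the log2 fold change was -1.01 (SE 0.237). It was -1.23 without LOXP1 and -0.85 without LOXP2, and the 3 criteria were not met without LOXP2, LOXP3, KO1 or KO3, nor in the FPKM-based fits or with a replicate block.

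**Figure D3:**
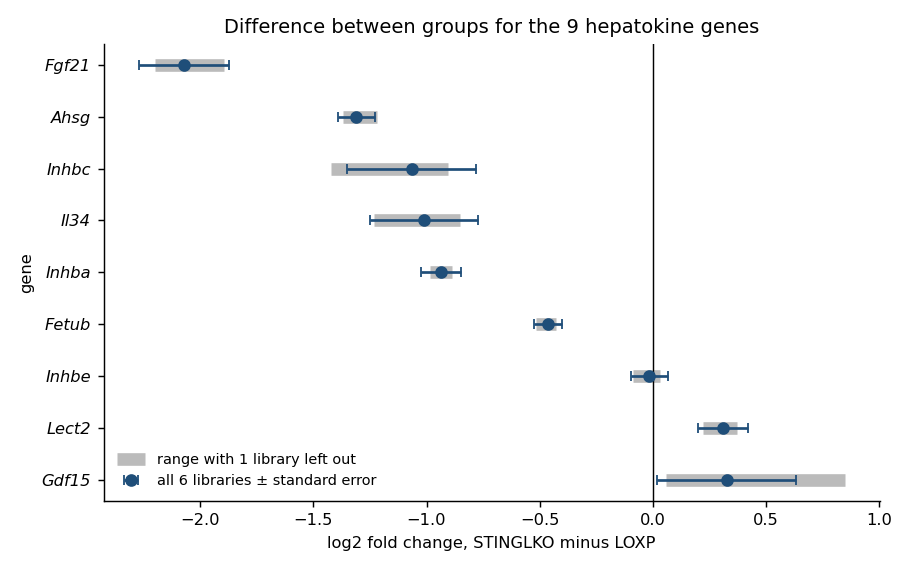
Log2 fold change (STINGLKO minus LOXP) of the 9 hepatokine genes, with points and bars for the value and SE from all 6 libraries and grey bands for the range when 1 library is left out. *Fgf21* at -2.07 and *Ahsg* at -1.31 lie beyond -1 with their bands, those of *Inhbc* and *Il34* cross -1, and that of *Gdf15* runs from 0.06 to 0.85.

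Compared per length, in FPKM, the fetuin transcripts stood far above the other members. In LOXP the order was *Ahsg* (224 ± 24.8), *Fetub* (59.1 ± 3.23), *Gdf15* (19.5 ± 10.1), *Lect2* (12.5 ± 1.56), *Fgf21* (10.6 ± 1.54), *Inhbe* (7.80 ± 0.792), *Inhba* (3.66 ± 0.268), *Il34* (2.52 ± 0.690) and *Inhbc* (1.87 ± 0.312; SD, n = 3 each). The libraries of *Gdf15* and *Lect2*, of *Lect2* and *Fgf21*, and of *Il34* and *Inhbc* overlapped, so these neighbours in the order did not differ beyond their spread. In STINGLKO *Ahsg* stood at 92.7 ± 4.38, *Fetub* at 44.0 ± 0.861, *Gdf15* at 25.1 ± 2.38 and *Lect2* at 15.9 ± 1.35 FPKM. There *Inhbe* (7.90 ± 0.171) came before *Fgf21* (2.60 ± 0.592), which overlapped *Inhba* (1.96 ± 0.0731), and *Il34* (1.27 ± 0.201) overlapped *Inhbc* (0.903 ± 0.324). In FPKM, *Fgf21* and *Inhbe* had thus changed places. In CPM, which is not divided by length, *Inhbe* stood above *Fgf21* in LOXP (42.0 against 10.2) and in STINGLKO (41.6 against 2.44). The length behind the FPKM of *Inhbe* and *Gdf15* was 95.8% and 95.5% of the whole gene span, introns included, while it was 5.41% for *Il34* and 59.3% for *Fgf21*, which bears on levels between genes and not on differences within a gene.

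The receptors through which these proteins act were read next. Of 22 receptor and co-receptor genes, 17 had enough counts to be tested. Of these, 4 fell and 0 rose at an adjusted p under 0.05, with a median log2 fold change of -0.20. Of all genes tested, 11.6% fell and 11.5% rose at this threshold. This list and the later ones were chosen with earlier results of these data known. At an unadjusted p under 0.05 in edgeR's quasi-likelihood test, 1 was higher (*Klb*). By adjusted p, DESeq2 gave 0 higher and limma-trend on log2(FPKM + 1) gave 1. *Fgfr4*, the main FGF receptor of hepatocytes, went from 9.04 ± 0.782 to 6.14 ± 0.868 FPKM (SD, n = 3 per group) and fell by 0.59 in log2 (adjusted p = 0.00939 in edgeR's quasi-likelihood test). *Sdc1*, a heparan sulphate proteoglycan to which IL-34 binds, fell by 0.51 (adjusted p = 3.05e-04), and *Acvr1b*, the type I activin receptor ALK4, fell by 0.48 (adjusted p = 0.0032). *Fgfr1*, the receptor that FGF21 uses with beta-Klotho, fell by 0.36 (adjusted p = 0.0303) but missed the threshold without LOXP2, LOXP3 or any one of the STINGLKO libraries. *Klb*, which encodes beta-Klotho, had 57, 50 and 49 counts in LOXP and 68, 86 and 92 in STINGLKO, with a log2 fold change of 0.47 (adjusted p = 0.0737).

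The activin type II receptors *Acvr2a* and *Acvr2b* had log2 fold changes of -0.22 and -0.16 (adjusted p = 0.159 and 0.630), and *Acvr1c*, the receptor ALK7, had 2 counts in LOXP1 and 0 in the other libraries. *Gfral*, the receptor of GDF15, its partner *Ret*, and the receptor genes *Ptprz1* and *Cd209a* were at 0 counts in all 6 libraries. Taken alone, a library at 0 could miss up to 3 expected counts, and 0 in all 6 leaves room for less per library. *Csf1r*, the receptor of IL-34 and a macrophage gene, was at -0.16 (adjusted p = 0.551), while *Met* and *Tek* were at -0.06 and -0.36 (adjusted p = 0.628 and 0.180). The widest value in this list was that of *Tlr4*, an innate immune receptor linked to fetuin-A, and it is named after its values were seen. It had 112, 75 and 41 counts in LOXP and 9, 7 and 52 in STINGLKO, so that KO3 overlapped LOXP, and its log2 fold change was -1.91 (adjusted p = 0.0683).

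Around the activin subunits, 17 of 18 genes for other subunits, inhibitors, processing proteases and SMADs were tested. Of the 17, 2 fell and 3 rose, with a median log2 fold change of 0.06, while 11.6% of all genes tested fell and 11.5% rose. *Pcsk5*, a proprotein convertase, fell by 1.13 (adjusted p = 0.00474) at a mean FPKM of 0.291 in LOXP. *Fst*, the activin-binding inhibitor follistatin, fell by 0.50 (adjusted p = 0.0176), and not past the threshold without LOXP3 or KO3. *Pcsk6*, another convertase, rose by 0.50 (adjusted p = 0.00116). *Smad2* and *Smad3*, which transmit activin signals, rose by 0.32 and 0.23 (adjusted p = 0.0162 and 0.0236), and each missed the threshold when some single libraries were left out (LOXP2 or KO2 for *Smad2*, LOXP3 or any one of the STINGLKO libraries for *Smad3*). *Inhbb*, the beta B subunit, was at -0.32 (adjusted p = 0.236), and *Inha*, the inhibin alpha subunit, had 0 counts in every library.

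Among 32 regulators of hepatokine genes and shared targets of ATF4, all tested, 8 fell and 3 rose, with a median of -0.09. The shares of all genes tested were 11.6% and 11.5%. *Ppargc1a*, the transcriptional coactivator of fasting metabolism, fell by 1.21 (adjusted p = 0.0300) on 14 to 58 counts per library, and missed the threshold without LOXP1, LOXP3, KO1 or KO2. *Ppp1r15a*, which encodes the phosphatase subunit GADD34, fell by 0.77 (adjusted p = 0.00271), *Ddit4* fell by 0.72 (adjusted p = 0.0104), and *Hnf4a*, the nuclear receptor of hepatocyte identity, fell by 0.59 (adjusted p = 3.38e-04). In the other direction, the cystine transporter gene *Slc7a11* went from 10.8 ± 1.71 to 25.8 ± 0.995 FPKM (SD, n = 3 per group), a rise of 1.22 (adjusted p = 2.47e-04). The serine synthesis genes *Phgdh* and *Psat1* rose by 0.60 and 0.34 (adjusted p = 2.92e-04 and 0.00891). *Atf4* itself was at -0.07 (adjusted p = 0.773), and *Ddit3*, which encodes the stress factor CHOP, was at -0.01 (adjusted p = 0.974). *Ppara*, the nuclear receptor that drives *Fgf21* in fasting, was at -0.21 (adjusted p = 0.171). Among shared ATF4 targets with no call, *Trib3* was at -0.09 (adjusted p = 0.357), *Asns* at 0.25 (0.106), *Chac1* at -0.16 (0.152) and *Sesn2* at 0.06 (0.552). Known ATF4 targets stood among the genes that rose, among those that fell, and among those with no call. The part of ATF4 in these levels was not tested.

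Of 29 other hepatokine genes, 27 were tested. Of these, 13 fell and 2 rose, and their median log2 fold change was -0.37. The shares of all genes tested were 11.6% and 11.5%, and nothing is read from the counts, since earlier results were known when the list was chosen. *Enho*, which encodes adropin, went from 1.68 ± 0.124 to 0.572 ± 0.0900 FPKM (SD, n = 3 per group) and fell by 1.58 (adjusted p = 0.00332). *Igfbp1*, an insulin-repressed binding protein of the insulin-like growth factors, went from 320.4 ± 44.9 to 124 ± 5.01 FPKM and fell by 1.40 (adjusted p = 8.81e-05). *Hamp*, the iron hormone hepcidin, fell by 0.97 (adjusted p = 0.00878), and *Tsku*, the secreted tsukushi, fell by 0.87 (adjusted p = 0.0202), which missed the threshold without any one of the STINGLKO libraries. *Igfbp2*, another binding protein of the same family, rose by 0.56 (adjusted p = 0.00262), and *Manf*, a secreted factor of endoplasmic reticulum stress, rose by 0.34 (adjusted p = 0.0291), although not past the threshold without LOXP2, LOXP3, KO1 or KO3. *Shbg* had 0 counts in every library and *Gdf2* too few to be tested.

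**Figure D4:**
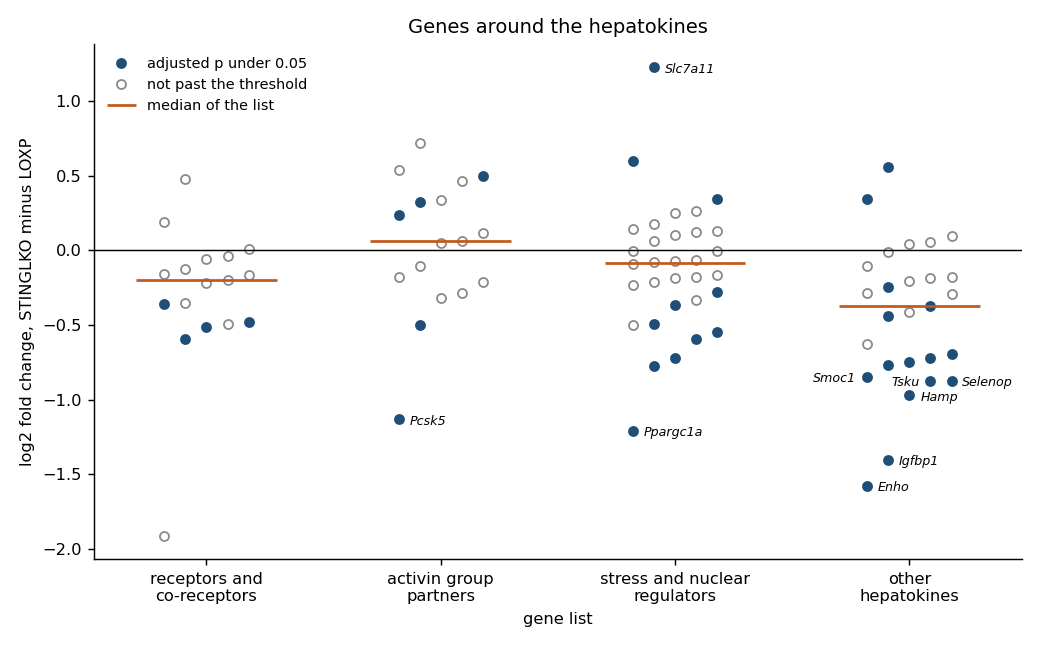
Log2 fold change (STINGLKO minus LOXP) of each tested gene in the 4 lists around the hepatokines, 1 point per gene, filled where the adjusted p is under 0.05 and open where it is not, with the median of each list as an orange line. The medians are -0.20, 0.06, -0.09 and -0.37, and *Slc7a11* at 1.22 stands highest.

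The summed FPKM of the marker lists of other liver cells was small beside that of the hepatocyte list, most of which was *Alb*. Such sums do not measure how much RNA came from each cell type. The marker counts below are by adjusted p under 0.05, at which 11.6% of all genes tested fell and 11.5% rose. Of the 7 tested macrophage markers, 1 fell: *Cd68*, by 0.87 (adjusted p = 4.21e-04). *Marco*, another of the macrophage markers, was at 0.05 (adjusted p = 0.847). *Cd5l*, named after its values were seen, was at 0.94 (adjusted p = 0.0853), and at 0.58 without LOXP2. Its level was higher in every STINGLKO library than in any LOXP library. Also without a call, *Vsig4* and *Clec4f* were at 0.20 and 0.12, and *Adgre1* and *Csf1r* at -0.12 and -0.16. The summed level of the list, most of it *Cd68*, ran from 45.2 to 52.5 FPKM in LOXP and from 31.3 to 36.8 in STINGLKO, while the median log2 fold change of the 7 was 0.05. Cholangiocyte markers summed to between 119 and 140 FPKM in LOXP and between 61.8 and 72.7 in STINGLKO. Most of the sum was *Cldn4* (mean FPKM 111 in LOXP and 55.8 in STINGLKO). Of the 4 tested, 3 fell and 1 rose, while *Krt7* (0 to 5 counts per library) and *Epcam* (2 to 12) had too few counts to be tested. *Cldn4* fell by 1.03 and *Sox9* fell by 0.87 in log2 (adjusted p = 2.81e-04 and 4.08e-04). Named after their values were seen, *Spp1* fell by 2.04 while *Krt19* rose by 0.82. *Krt19* passed narrowly (adjusted p = 0.0479) on 23 to 77 counts per library. Its adjusted p reached 0.152 among the other settings and leave-outs. Endothelial markers, led by *Cdh5* and *Lyve1*, summed to between 22.6 and 24.1 FPKM in LOXP and between 20.5 and 22.0 in STINGLKO, where 1 of 7 fell (*Stab2*, by 0.49, named after its values were seen). Stellate cell markers summed to between 6.03 and 6.26 FPKM in LOXP and between 6.56 and 7.47 in STINGLKO, with *Dcn* and *Acta2* at log2 fold changes of 0.16 and 0.23 (adjusted p = 0.247 and 0.532). The 6 lymphocyte markers were at 0 counts in every library. The lower hepatocyte markers, *Cldn4*, *Sox9*, *Spp1* and *Cd68* moved with the lower hepatokine levels. *Krt19*, and *Cd5l* short of the threshold, went the other way. The part of these markers in the hepatokine levels was not tested.

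The transcripts whose level over the 6 libraries was most like that of each member are given as a description, since all genes share the same libraries and their split by group. Pearson's r was computed on log2 CPM against 10870 genes with a mean FPKM of at least 1. For *Fgf21* it was highest with *Hdhd3*, *Fan1* and *Bcl2l14* (r = 0.999, 0.998 and 0.996), and 938 genes exceeded 0.9. For *Ahsg* it was highest with *Gjb2*, *Tmem254* and *Agxt2* (0.999 each), with 1023 genes above 0.9, and for *Fetub* with *Serpina1a*, *Inhca* and *Wbp2* (0.999, 0.998 and 0.998), with 996. For *Inhba* it was highest with *Isg15*, *Serpina3m* and *Iigp1* (0.999, 0.998 and 0.998), with 1048 above 0.9. *Isg15* and *Iigp1* are interferon-stimulated genes. These members follow the split between the groups, and so do the many genes like them.

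*Inhbc* was most like *Prrg2*, *Urod* and *Gm5064* (r = 0.997, 0.989 and 0.986, with 322 genes above 0.9), and *Il34* was most like *Eef1a1*, *Fgfr1* and *Pygl* (0.998, 0.995 and 0.993, with 492). *Lect2* was most like *Ddx55*, *Dmap1* and *Mars2* (0.993, 0.988 and 0.988, with 191). *Gdf15* and *Inhbe*, whose groups overlapped, had fewer like genes. For *Gdf15* they were *Phlda1*, *Apoc1* and *Ap3b1* (0.998, 0.993 and 0.987), with 114 above 0.9, and for *Inhbe* they were *Gm45837*, *Syncrip* and *Dap* (0.994, 0.993 and 0.993), with 45.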

How the data were processed

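Total RNA of 6 libraries was sequenced by the authors as 150 bp paired-end reads (VAHTS Universal V6 kit, NovaSeq) and mapped with HISAT2. The submitters' processing notes also name fastp, StringTie, edgeR and the build GRCm39. The counting tool, annotation release and strand setting are not given in the sources used here. The deposited table holds raw read counts and FPKM values per gene and library, and no sample column was left unused. The authors' FPKM values equal the count over 1 fixed gene length and the library's counted reads, checked on 13088 genes with at least 10 counts in each library, where the implied length differed between libraries by at most 0.00873%.

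Differences in counts were fitted with edgeR 4.0.16 under R 4.3.3: filterByExpr (minimum count 10), TMM factors (0.973 to 1.02), the two-sided quasi-likelihood test and Benjamini-Hochberg adjustment over 14151 genes. The SE is the log2 fold change over the square root of F. Alternatives were DESeq2 1.42.0, upper-quartile factors, no low-count filter, the replicate number as a block, limma 3.58.1 (limma-trend) on log2 FPKM with pseudocounts of 1 and 0.1, and each library left out in turn. Replicates differed by more than counting noise (chi-square per degree of freedom 7.77 to 16.7). The edgeR quasi-likelihood fit was tested on simulated counts.

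The 9 members and all lists were chosen with earlier results of these data known. Named from each list were the genes past the threshold, at most 4 with the largest change in each direction, plus direct receptors, activin subunits, *Fst*, *Atf4*, *Ddit3* and *Ppara*. From the markers the 2 most abundant were named, and for each member the 3 most correlated genes. The neighbouring genes, *Tlr4*, the ATF4 targets with no call and some further markers were named after the data had been seen. *Ddit3* has 2 lines in the table, and the one with more counts was used. 1 hepatocyte marker was not matched by name, and results for 1 gene of a list are not reported here. Promoters are RefSeq sequences on GRCm38.p6.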

Additional observations from a re-analysis of the deposited data

How the results depend on the processing

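With DESeq2, upper-quartile factors or no low-count filter, all member and list counts by adjusted p stayed within 1.5 times. With limma-trend on log2(FPKM + 1), the study's criteria gave 93 lower and 38 higher genes in place of 211 and 79, and 2 lower members (*Fgf21* and *Ahsg*) in place of 4. By adjusted p alone it gave 1 higher receptor gene in place of 0. A pseudocount of 1 shrinks the fold changes of low genes.

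Same-numbered libraries of the 2 groups deviated together only weakly (correlations 0.172, 0.106 and 0.0188), and nothing says that the numbers pair the samples. With the replicate block 1 member (*Lect2*) was higher in place of 0 by adjusted p, *Il34* at -0.9964 no longer met the study's criteria (3 lower members in place of 4), 5 regulators were higher in place of 3, and 1605 lower and 1630 higher genes were called by adjusted p.

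With 1 library left out, the counts by adjusted p ran from 1052 to 1515 lower and from 922 to 1510 higher genes (1641 and 1633 with all), from 4 to 6 lower and from 0 to 1 higher members, from 1 to 2 lower and from 1 to 3 higher activin group genes, from 5 to 7 lower regulators and from 1 to 2 higher other hepatokines. Without LOXP3, KO1 or KO3 the lower members were *Fgf21*, *Inhba*, *Fetub* and *Ahsg*. Members lower by the study's criteria ran from 2 to 4. *Sting1* ran from -0.26 to 0.11, and was 0.06 without LOXP3. *Inhbe* ran from -0.0868 to 0.0333 (without LOXP2 and LOXP3), was 0.0052 without LOXP1 and 0.0004 without KO3, and was 0.0200 and 0.0227 with FPKM pseudocounts of 1 and 0.1. Over single genes, 467 values kept their direction and side of the threshold, 54 lost it, 2 gained it and 5 turned. The cause of these shifts was not tested. *Ppargc1a*, *Inhbc*, *Enho* and *Pcsk5* rest on few counts, which limits their precision.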
